A study of Mus musculus with 2 samples.

Results

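The spots described here were ranked by 3 genes that mark neurons of the upper layers of the neocortex, Lamp5, Cux2 and Calb1, in coronal sections of the mouse brain measured on the 10x Visium array. In each section, spots with at least 500 UMIs in array rows 30 or less and 0 UMIs of Tshz2 and Vxn were scored by the mean over the 3 genes of the natural log of 1 plus UMIs per 10000, and the 100 highest were kept. That gave 200 of 7264 spots, 100 in each mouse. A spot is a small region that can hold several cells of different types, and a UMI is a counted RNA molecule.

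The study used 1 coronal section from each of 2 mice. Both mice expressed hM3Dq, a receptor engineered to be switched on by the drug clozapine-N-oxide (CNO), and both were given CNO. Mouse 1 was a C57BL/6J control per the labels, and mouse 2 an isogenic control edited with CRISPR-Cas9. The 10 µm sections were cut 1.9 mm behind bregma, the injection was placed 4.6 mm behind it, and tissue at both lateral ends was cut off before sectioning. The side that was injected is not labelled, no section without hM3Dq or CNO was analysed here, and the cell type or promoter that drives hM3Dq is not given in the sources used here. No treatment effect can therefore be read from these sections, and the comparisons below are between spots of the same section.

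Neurons of the upper neocortical layers connect cortical areas and the hemispheres with each other, and they lie just under the pial surface above the input layer. Lamp5 encodes a membrane protein of upper-layer and of some inhibitory neurons, Cux2 a transcription factor of upper-layer neurons, and Calb1 the calcium-binding protein calbindin. None of the 3 is restricted to the neocortex: Lamp5 and Calb1 are also made in the hippocampus, whose CA1 field and dentate gyrus lie below the corpus callosum in sections at this level. Tshz2 marks retrosplenial and some deep-layer cortical neurons, and Vxn, which encodes vexin, was read across much of the dorsal part of both sections. On the mouse GRCm38.p6 assembly (mm10), RefSeq places Lamp5 at chr2:136052025-136069917, Cux2 at chr5:121857962-122050415, Calb1 at chr4:15881264-15906709, Tshz2 at chr2:169632509-170072751 and Vxn at chr1:9601267-9627142.

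By position, the name upper-layer neocortex could hold for part of the ranked spots of mouse 1 and for few of mouse 2. The white matter over the hippocampus was traced as an arc through the spots richest in myelin RNA, Mbp and Mobp among it, and dorsal spots (array rows 30 or less) were sorted into those above the arc, on it (within 1.5 spot pitches) and below it. In mouse 1, 57 of the 100 ranked spots lay above the arc (95% Clopper-Pearson interval 46.7% to 66.9%), 9 on it and 34 below it. In mouse 2 only 6 lay above it (2.23% to 12.6%), 7 on it and 87 below it. The neocortex lies above this white matter, but a place above it does not give the layer. The spots are therefore called ranked spots from here on and are given no cell type name. The intervals treat spots as independent, which neighbouring spots of 1 section are not.

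**Figure D1:**
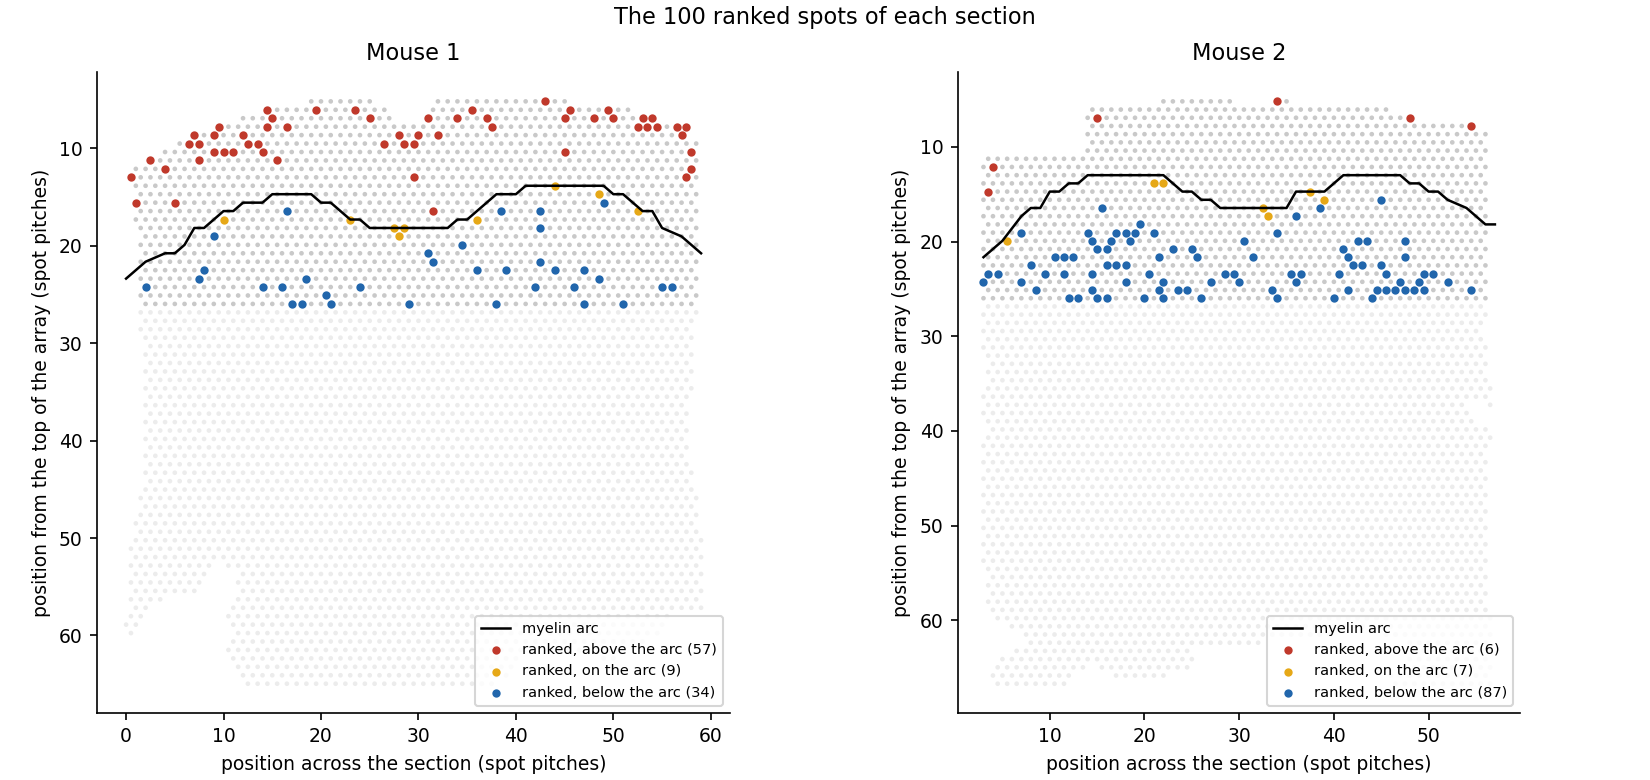
Position of each spot across the section (horizontal) and from the top of the array (vertical), in spot pitches, for mouse 1 (left) and mouse 2 (right). Coloured points are the 100 ranked spots, darker grey points the other dorsal spots, light grey points all other spots, and the line is the myelin arc. Of the ranked spots, 57 lay above the arc in mouse 1 and 6 in mouse 2.

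The conditions on Tshz2 and Vxn left far fewer spots to rank in mouse 2. Of 1343 dorsal spots in mouse 1, 384 (28.6%) passed them, against 110 of 1209 (9.10%) in mouse 2. There 100 of those 110 were taken, 13 of them with a score of 0. Above the arc, 99 of 602 spots (16.4%) passed in mouse 1 and 6 of 422 (1.42%) in mouse 2. Below it, 239 of 555 (43.1%) and 97 of 615 (15.8%) passed.

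Vxn removed most of the spots above the arc. There it was at 0 UMIs in 153 of 602 spots of mouse 1 (25.4%) and in 19 of 422 spots of mouse 2 (4.50%), although its summed level was close in both mice, 299 and 336 CPM (counts per 1e6 UMIs of the summed spots). Tshz2 was at 0 UMIs in 416 and 240 of these spots, with 79.9 and 71.3 CPM. The median depth of a spot above the arc was 6152 UMIs in mouse 1 and 13798 in mouse 2. The part of this difference in depth in the number of spots at 0 was not tested. Without the conditions, the 100 highest scores fell above the arc in 93 spots of mouse 1 and 71 of mouse 2, and 28 and 9 of these were ranked spots.

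**Figure D2:**
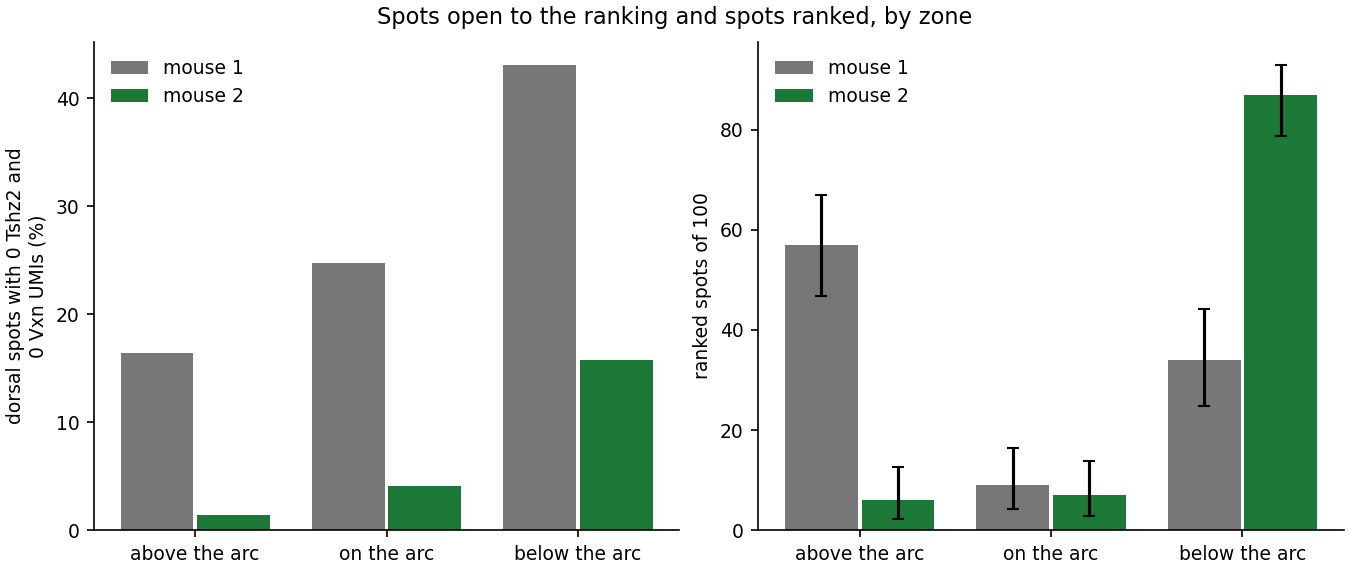
Left, share of dorsal spots (%) that had 0 UMIs of Tshz2 and Vxn in each zone; right, number of the 100 ranked spots in each zone, with exact 95% binomial intervals. Grey bars are mouse 1 and green bars mouse 2. The share above the arc was 16.4% in mouse 1 and 1.42% in mouse 2.

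The scores, which chose the spots and are given as a description, were also lower in mouse 2. In mouse 1 they ran from 1.70 at rank 1 to a median of 0.714 and 0.485 at rank 100, and the first spot left out had 0.476. In mouse 2 they ran from 1.02 to a median of 0.300 and 0 at rank 100, and the first spot left out was at 0 as well. In mouse 2, 13 ranked spots had no UMI of any of the 3 genes, 51 had UMIs of 1 gene, 29 of 2 and 7 of all 3. All ranked spots of mouse 1 had at least 1 of the genes. Lamp5 was read in 79 and 55 ranked spots of mouse 1 and mouse 2, Calb1 in 64 and 58, and Cux2 in 25 and 17.

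Among the ranked spots Lamp5 and Cux2 had larger summed levels above the arc than below it, and Calb1 smaller ones, although in mouse 2 the Cux2 and Calb1 levels above the arc rest on 2 and 4 UMIs. In the ranked spots Lamp5 stood at 262 CPM in mouse 1 and 62.9 CPM in mouse 2, against 35.5 and 40.6 CPM in all other spots. Calb1 stood at 208 and 89.9 CPM against 128 and 130, and Cux2 at 48.7 and 14.2 CPM against 24.8 and 29.3. In mouse 2, therefore, the summed ranked spots held less Cux2 and less Calb1 than the rest of the section. Above the arc, Lamp5 was at 379 CPM in the ranked spots of mouse 1 and 288 CPM in those of mouse 2, against 191 and 212 CPM in the other spots above it. Below the arc it was at 154 and 52.4 CPM, against 40.0 and 51.7 CPM. Cux2 above the arc was at 75.7 and 32.1 CPM against 16.6 and 17.1, and below it at 22.1 and 13.5 CPM against 6.31 and 11.7. Calb1 above the arc was at 167 and 64.1 CPM against 62.6 and 42.5, and below it at 282 and 94.6 CPM against 69.1 and 86.7.

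**Figure D3:**
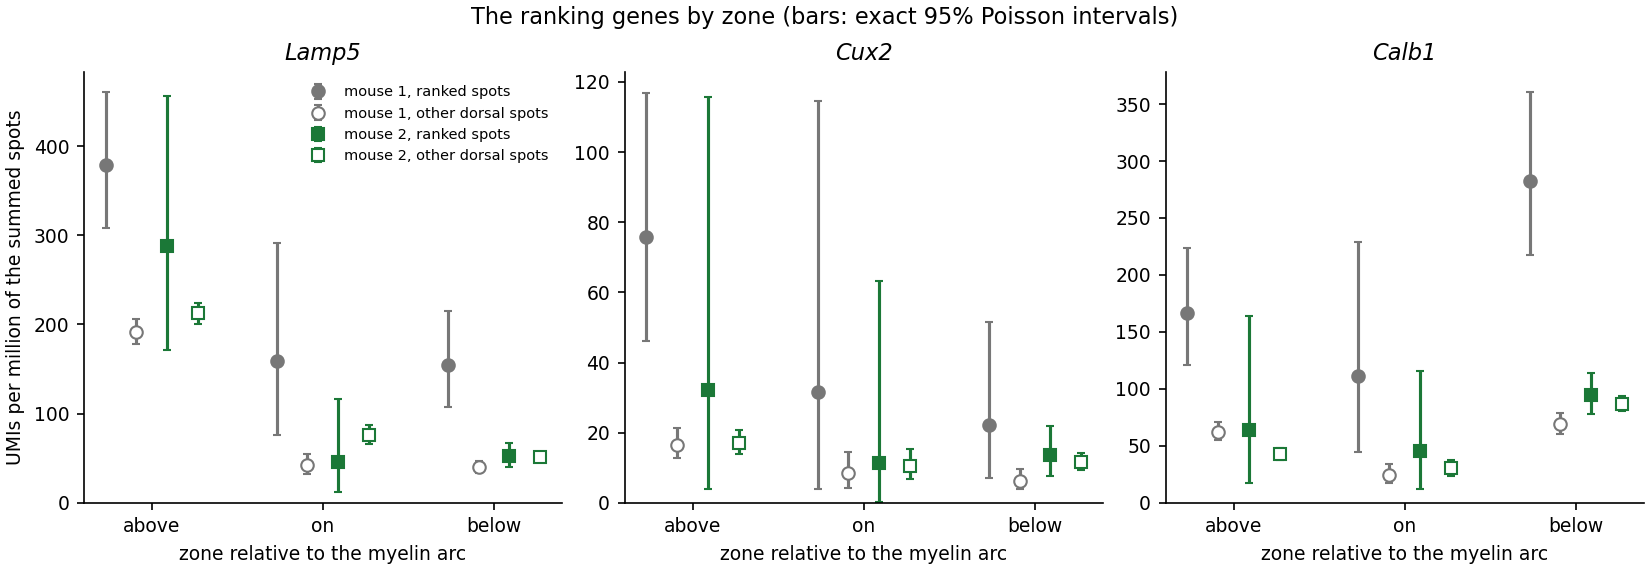
Summed level of the 3 ranking genes, in CPM, in ranked spots (filled) and other dorsal spots (open) of each zone, for mouse 1 (grey) and mouse 2 (green). Bars are exact 95% Poisson intervals, which cover counting error only; Lamp5 in the ranked spots below the arc was at 154 CPM in mouse 1 and 52.4 CPM in mouse 2.

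The ranked spots lay scattered, with some clustering. A ranked spot had another as a direct neighbour in 50 of 100 cases in mouse 1 and 64 in mouse 2, and 13.3% and 16.7% of their neighbours were ranked spots, against 7.45% and 8.27% of all dorsal spots. Those above the arc were near the tissue edge, with a median distance to the nearest position outside tissue of 1.73 pitches in mouse 1 and 1 pitch in mouse 2, against 4.36 and 3.23 for the other spots above the arc. This distance counts any edge of the tissue, the lateral ends included, and not the pial surface alone. The image sides held 48 and 52 ranked spots in mouse 1, left and right, and 57 and 43 in mouse 2. Their summed depth was 553882 UMIs in mouse 1 and 1334762 in mouse 2, with medians of 4988 and 12450 per spot, below the 7655.5 and 14738 of all other spots. Of the spot barcodes, 3369 were used in both sections, since both arrays carry the same printed set.

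Against all other spots of the section, the ranked spots had the RNA of the dorsal forebrain and little of the thalamus and hypothalamus. This comparison followed UMIs summed per mouse, tested with edgeR's quasi-likelihood test with the mouse as a block and Benjamini-Hochberg adjustment at 0.05. Of 15245 genes tested, 726 (4.76%) were called higher and 828 (5.43%) lower. Since the spots were chosen on UMIs and array rows of the same sections, these calls describe what the chosen spots share and support nothing about the choice. The other spots took in all rows, so the low level of thalamic and hypothalamic genes was largely set by the row limit. With 2 mice the fit has 1 residual degree of freedom, and each standard error (SE) rests on a spread pooled over all genes. The same holds for the comparisons that follow, and in none of them can fewer cells of a type be told apart from less RNA per cell.

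The list of upper-layer genes outside the rule moved unevenly. Of its 17 members 6 were higher, 1 was lower and 10 did not pass, with a median log2 difference of 0.61 against -0.03 over all genes tested. Bhlhe22, a transcription factor of cortical projection neurons, had 39.7 and 94.4 CPM in the ranked spots of mouse 1 and mouse 2 against 13.3 and 17.4 CPM in the other spots, a log2 difference of 2.24 ± 0.21 (SE, edgeR adjusted p = 7.2e-25). Its level was larger in mouse 2, where 6 ranked spots lay above the arc, than in mouse 1, where 57 did. Lhx2, a regulator of cortical identity, had 75.8 and 80.9 CPM against 26.6 and 27.4, a difference of 1.60 ± 0.19. Nectin3, a cell adhesion molecule, differed by 1.02 ± 0.30. Cdh13, a cadherin without a transmembrane part, was the member that fell, by -1.46 ± 0.28. Cux1, a relative of Cux2, did not pass, with 27.1 and 28.5 CPM against 41.2 and 42.5 (edgeR adjusted p = 0.14), nor did Wfs1, with 39.7 and 53.9 CPM against 36.5 and 47.4. Both mice were below the other spots for Cux1.

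Transcription factors of cortical projection neurons in general were all higher, 11 of 11, with a median of 1.06. Neurod2 differed by 1.83 ± 0.17 and Emx2 by 2.15 ± 0.40. The hippocampus makes these factors too. Thalamic genes were all lower, 8 of 8, with a median of -2.71. Tcf7l2 fell to 12.6 and 39.7 CPM against 217 and 256, and Slc17a6, the vesicular glutamate transporter of subcortical neurons, to 23.5 and 27.7 CPM against 188 and 229. The deepest drops included the hypothalamic peptides Hcrt, by -5.93 ± 0.22, and Pmch, by -5.75 ± 0.15. Against the other dorsal spots alone, 2 of 8 thalamic genes were higher and 0 lower, with a median of 0.66.

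Genes of dentate granule cells of the hippocampus were also higher, 5 of 7, with a median of 2.37, and none was lower. C1ql2, a synaptic protein secreted by granule cells, had 37.9 and 78.7 CPM against 8.53 and 14.0 CPM, a difference of 2.45 ± 0.23. Dsp (desmoplakin) differed by 2.86 ± 0.48 and Trpc6, a cation channel, by 2.37 ± 0.40. Smoc2, a matrix protein outside the list, had the highest rise of the genes named here, 2.92 ± 0.44, on 7 and 30 UMIs. Of 4 CA1 genes 2 were higher, among them Spink8 by 0.81 ± 0.21. Prox1, the transcription factor of granule cells, did not pass, with 23.5 and 48.7 CPM against 27.1 and 35.1.

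Interneuron genes split, 5 of 14 higher and 4 lower. Npy, neuropeptide Y, had 506 CPM in mouse 1 and 269 CPM in mouse 2 against 111 and 101, a difference of 1.84 ± 0.11, and Lhx6, a factor of interneurons from the medial ganglionic eminence, differed by 2.04 ± 0.46 on 8 and 18 UMIs. Reln, the reelin of layer 1 cells, was 1 of 3 of the 7 layer 1 genes that were higher, by 1.41 ± 0.28. Of glutamate receptor and postsynaptic genes 5 of 19 were higher, among them Camk2a by 1.16 ± 0.11 and Gria1 by 0.74 ± 0.11. Of presynaptic genes 3 of 15 were higher, with Cplx2, a complexin, at 1.44 ± 0.11, and 4 lower. Of 18 immediate early genes, which neurons switch on after firing, 4 were higher and none lower: Egr3 differed by 1.16 ± 0.19, Jun by 0.65 ± 0.18 and Egr1 by 0.46 ± 0.14. Fos (21.7 and 6.74 CPM against 11.9 and 12.6) and Arc did not pass, and Fos went opposite ways in the mice.

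Myelin genes were lower in 6 of 8 cases, with Mbp, myelin basic protein, at 3447 and 3243 CPM against 4869 and 4903. Pcp4, a calmodulin-binding peptide of layer 5 and of the thalamus, fell to 722 and 836 CPM against 2829 and 2729. The layer 5 list did not fall as a whole: of 12 genes 2 were higher and 2 lower, with a median of -0.04. Of the neurofilament genes 3 of 4 were lower, with Nefh at -1.41 ± 0.17. Microglial genes (0 of 9, with 3 at an unadjusted p under 0.05) and complement genes (0 of 6 tested, with 1) gave no call in edgeR: C1qa, a chain of C1q, had 68.6 and 86.9 CPM against 83.5 and 69.8, above the other spots in mouse 2 and below them in mouse 1.

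Genes of the choroid plexus and of blood were higher in this comparison, and 9 ranked spots were rich in Ttr. All 6 choroid plexus genes were higher, with Ttr, the transthyretin secreted by that tissue, at 5400.1 CPM in mouse 1 and 11992 CPM in mouse 2 against 3543 and 2267. Of 5 blood genes 4 were higher. Ttr made up at least 1% of the UMIs in 1 ranked spot of mouse 1 and 8 of mouse 2, all below the arc, where 43 of 521 and 51 of 528 other dorsal spots were like it; no spot above the arc was. Without these 9 spots (a setting chosen after seeing the data) 739 of 15174 genes (4.87%) were higher and 766 (5.05%) lower. Hba-a1, a haemoglobin chain, then differed by 0.05 ± 0.11. Spots were left out for their Ttr in the ranked set only, so this setting fixes the choroid plexus values, which are not read. The counts for the upper-layer list, the projection neuron factors and the dentate genes stayed at 6, 11 and 5 higher.

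Set against the other dorsal spots alone, 8612593 and 16319542 UMIs, most of these differences shrank and several turned. Of 12990 genes tested, 125 (0.962%) were called higher and 86 (0.662%) lower. No projection neuron factor passed in edgeR, 0 of 11 (5 at an unadjusted p under 0.05), with Neurod2 at 0.39 ± 0.15. Of 16 upper-layer genes tested 3 were higher, with a median of -0.03. Bhlhe22 was 1 of them, at 1.10 ± 0.17, and Nectin3 another, at 1.23 ± 0.29, while Lhx2, at 0.52 ± 0.16, missed the threshold (edgeR adjusted p = 0.059).

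Of the 7 dentate genes 4 were higher, with C1ql2 at 1.21 ± 0.19 and Dsp at 1.58 ± 0.38, whereas Spink8 of CA1 was now lower, at -0.77 ± 0.17. Egr1, the transcription factor induced by activity, was lower too, at -0.76 ± 0.13, so its rise against the whole section did not hold against the neighbouring dorsal spots. Jun was higher in both comparisons, at 0.72 ± 0.18 here. Of the 18 immediate early genes 1 was higher and 1 lower against the other dorsal spots. Prkcd, a thalamic kinase gene in the fixed lists, turned from -2.92 ± 0.13 to 1.11 ± 0.19, and Slc17a6 went to 0.00 ± 0.24. Npy was higher by 0.55 ± 0.10. Mbp was lower by -0.41 ± 0.07. Camk2a, at 0.22 ± 0.10, and Gria1, at 0.06 ± 0.11, did not pass.

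**Figure D4:**
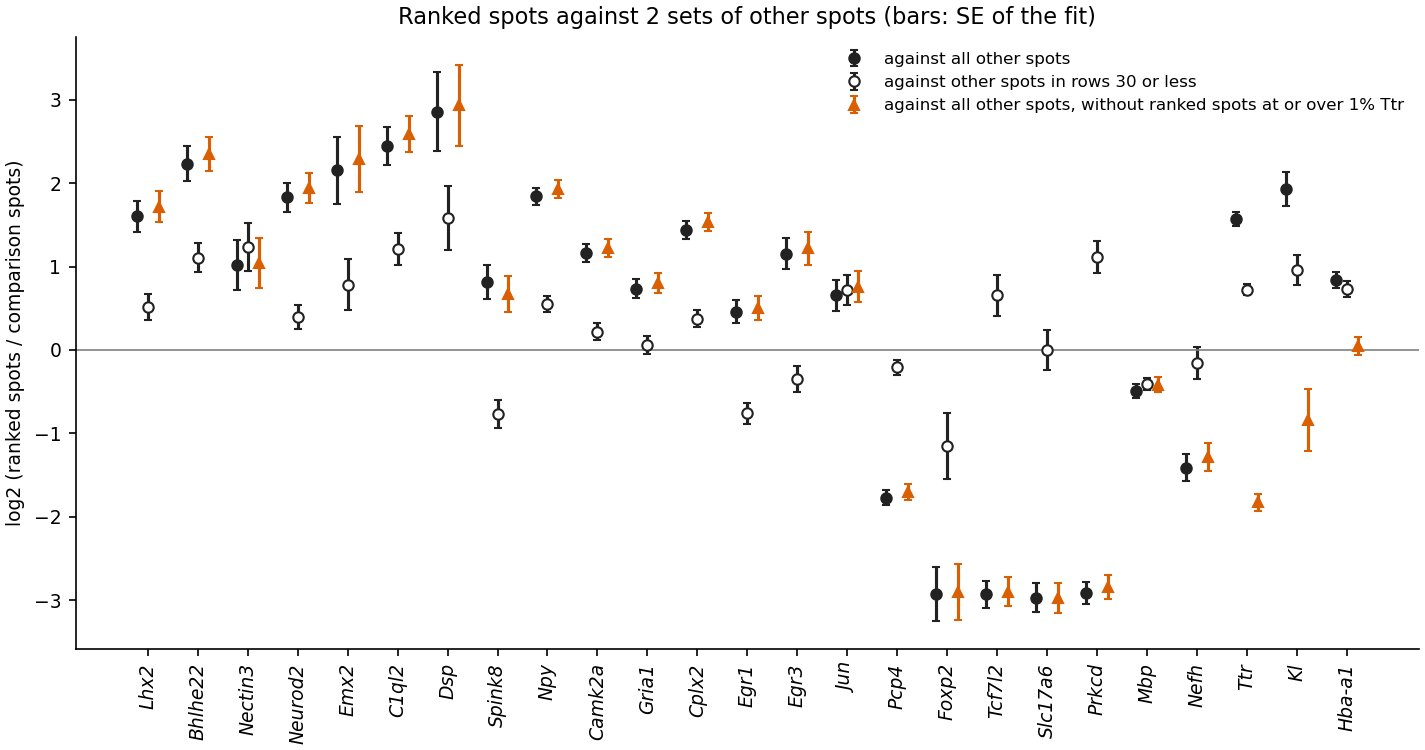
Log2 difference (vertical) of 25 genes between the ranked spots and all other spots (filled circles), the other dorsal spots (open circles), or all other spots after leaving out ranked spots with at least 1% Ttr (triangles); bars are the SE of the edgeR fit. Egr1, Spink8, Tcf7l2 and Prkcd lie on opposite sides of 0 for the filled and open circles, and Ttr and Kl for the filled circles and triangles, where the filter on Ttr sets the triangle.

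The ranked spots above the arc, the ones where the name could hold, were compared with the other dorsal spots above it, a comparison added after the zones were seen. It rests on 264148 and 62402 UMIs in the ranked spots against 3852467 and 5969840, and DESeq2 called none of its genes, with 107 at an unadjusted p under 0.05. In mouse 2 the 6 ranked spots were all those above the arc that passed the conditions on Tshz2 and Vxn. The lower genes included 4 of 8 myelin genes. Of 10829 genes tested, 11 (0.102%) were higher and 9 (0.0831%) lower. Camk2n1, an inhibitor of CaM kinase II, had 2968 CPM in mouse 1 and 3862 CPM in mouse 2 against 1789 and 1730.4, a difference of 0.89 ± 0.12 (edgeR adjusted p = 4.84e-11). Both ranked sets were above both comparison sets. S100a6, a calcium-binding protein, differed by 1.44 ± 0.30, and Myh7, a myosin heavy chain, by 2.07 ± 0.51 on 17 and 5 UMIs.

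The myelin list above the arc had a median log2 difference of -1.12 against -0.07 over all genes tested. Mbp had 1662 and 1234 CPM against 2937 and 3448, a difference of -1.09 ± 0.12 and Mal differed by -1.53 ± 0.32. Pcp4 was at 424 and 481 CPM against 1084 and 1044. Hapln4, a link protein of perineuronal nets, differed by -2.29 ± 0.58 and Cplx1, a complexin, by -0.85 ± 0.20. No gene of the upper-layer list passed in edgeR, 0 of 15 tested, with a median of 0.34 and 1 at an unadjusted p under 0.05. No layer 6 gene passed either, 0 of 8, with a median of -1.51 and 5 at an unadjusted p under 0.05. These ranked spots were nearer the tissue edge than the others above the arc, as given above, and the part of that distance in the result was not tested.

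Below the arc 3 of 4 CA1 genes were lower and 1 of 7 dentate genes was higher in the ranked spots than in the other dorsal spots there. The comparison was also added after the zones were seen, with 226696 and 1184111 UMIs against 3326315 and 7866498. In mouse 2, 87 of the 97 spots that passed the rule there were ranked. Their median score was 0.299, against 0.267 in all 528 other dorsal spots below the arc, whether or not these passed the rule. For mouse 2 it thus set spots with 0 UMIs of Tshz2 and Vxn against spots that mostly had some. With no such condition 9 genes were called, 1 of them among the 40 called here, and the part of the condition was not tested. Of 11430 genes, 12 (0.105%) were higher and 28 (0.245%) lower by edgeR, and DESeq2 called none, with 72 at an unadjusted p under 0.05. Without the mouse as a block edgeR called none either (485 at an unadjusted p under 0.05), and with mouse 2 thinned to the depth of mouse 1 it called 4. The CA1 genes had a median of -1.25. Spink8 had 106 and 50.7 CPM against 187 and 177, a difference of -1.47 ± 0.19, and Fibcd1 differed by -1.26 ± 0.27.

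Of 16 upper-layer genes tested below the arc 3 were lower, all of which CA1 pyramidal cells also make: Ccn3 by -1.43 ± 0.28, Wfs1 by -0.98 ± 0.20 and Pou3f1 by -0.85 ± 0.21. Crym, crystallin mu, differed by -0.85 ± 0.18 and the potassium channel subunit Kcnab1 by -0.73 ± 0.18. C1ql2, of the dentate list (1 of 7 higher), had 88.2 and 87.0 CPM against 25.0 and 55.9, a difference of 0.94 ± 0.21, and Smoc2 differed by 1.44 ± 0.37. Npy, at 0.76 ± 0.13, was carried by mouse 1, with 710 CPM against 249, while mouse 2 had 273 against 248. Summed over the list, blood genes stood at 1892 and 7310 CPM in these ranked spots against 1828 and 4846, and 2 of 5 were higher; their part in the result was not tested.

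Comparator sets of 100 spots per section were ranked in the same rows by genes of other layers, leaving out ranked spots, and the genes that chose either set were kept out of the tests. Their makeup by zone differs from that of the ranked spots. Spots ranked by the layer 6 genes Foxp2, Syt6 and Rprm lay above, on and below the arc in 52, 27 and 21 cases in mouse 1 and 50, 34 and 16 in mouse 2. Spots ranked by the layer 4 genes Rorb, Scnn1a and Rspo1 split into 65, 2 and 33, and 57, 7 and 36. Spots ranked by Tshz2 and Lamp5, called retrosplenial-type, lay above the arc in 97 and 96 cases. In mouse 2, where 87 ranked spots lay below the arc, the zone and the set cannot be told apart in these 3 comparisons.

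Against layer 6 spots, 369 of 9586 genes (3.85%) were higher in the ranked spots and 335 (3.49%) lower by edgeR. Layer 6 genes outside the rule were lower in 4 of 6 tested: Ccn2, a matricellular protein of the deepest layer, had 7.22 and 6.74 CPM against 51.7 and 76.2, and Hs3st4, a heparan sulphate enzyme, 39.7 and 56.2 against 134 in both mice. Tbr1, the determinant of corticothalamic neurons, differed by -1.52 ± 0.20, Cplx3 by -2.68 ± 0.33 and Hs3st2 by -3.35 ± 0.35. Egr1 had 126 and 112 CPM against 301 and 365. Of 14 immediate early genes tested 3 were lower, 1 was higher and 10 did not pass. Ighm, the heavy chain of immunoglobulin M, was lower, with 37.9 and 32.2 CPM against 170.1 and 143, whereas the light chain Igkc was higher, with 34.3 and 55.4 CPM against 9.63 and 5.81.

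Of 13 upper-layer genes tested against layer 6 spots, 6 were higher and 2 lower, with Bhlhe22 at 2.55 ± 0.29 and Nectin3 at 2.51 ± 0.48. Dentate genes (4 of 6 higher, 1 lower), choroid plexus genes (6 of 6 higher) and meningeal genes (5 of 5 tested higher) moved with them, with C1ql2 at 2.52 ± 0.30 and Ttr at 3.19 ± 0.11. Presynaptic genes were lower in 7 of 15 cases, such as Bsn, the active zone protein bassoon, at -0.74 ± 0.17. The summed choroid plexus list stood at 6303 and 13607 CPM in the ranked spots against 782 and 2140 in the layer 6 spots, and its part in the result was not tested.

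Against layer 4 spots the ranked spots differed least: 36 of 9025 genes (0.399%) were higher and 31 (0.343%) lower by edgeR. Pvalb, the parvalbumin of fast-spiking interneurons, had 319.6 and 130.4 CPM against 506 and 443, Egr1 had 126 and 112 against 214 and 226, and Cplx1 had 222 and 235 against 397 and 448. Of 13 immediate early genes tested 1 was lower and 12 did not pass. Dkkl1 differed by -2.10 ± 0.31, Nefm, a neurofilament chain, by -0.87 ± 0.18 and Mef2c, an activity-regulated transcription factor, by -0.76 ± 0.15. The upper-layer list gave no call among 13 tested by edgeR, with a median of -0.40, although 9 of the 13 had an unadjusted p under 0.05. Higher were C1ql2 (2.89 ± 0.34), Prox1 (1.84 ± 0.34), Prkcd (1.68 ± 0.28) and Npy (0.91 ± 0.15), along with 4 of 6 choroid plexus and 4 of 4 tested blood genes.

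Against retrosplenial-type spots 656 of 9405 genes (6.98%) were higher and 564 (6.00%) lower by edgeR. Of 15 presynaptic genes 6 were lower and 1 higher, and of 13 tested inhibitory neuron genes 2 were lower and 6 higher. Among the lower genes were Syt2, a synaptotagmin of fast synapses, with 14.4 and 3.75 CPM against 60.3 and 69.9, Pvalb with a difference of -2.03 ± 0.13, Cplx1 with -1.52 ± 0.13, and Etv1, a factor of layer 5 neurons, with -1.47 ± 0.17. All 4 neurofilament genes were lower, Nefm by -1.65 ± 0.17. Of 13 upper-layer genes tested 4 were higher and 1 lower, with Bhlhe22 at 2.43 ± 0.28 and Wfs1 at 1.61 ± 0.29. Camk2a and Gria1 were higher by 0.86 ± 0.14 and 1.40 ± 0.17.

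Of 9 microglial genes 3 were higher in the ranked spots than in the retrosplenial-type spots, as were 3 of 10 tested astrocyte genes and 3 of 4 tested complement genes. C1qa had 68.6 and 86.9 CPM against 38.9 and 48.3, a difference of 0.88 ± 0.22 (edgeR adjusted p = 0.00161), with both mice above both comparator sets. Complement component C4b differed by 1.86 ± 0.45. Gfap, the intermediate filament of astrocytes, had 86.7 and 163 CPM against 22.8 and 43.9. Igkc had 19 and 74 UMIs against 0 and 6. Myelin genes were higher in 7 of 8 cases, choroid plexus genes in 6 of 6 and dentate genes in 5 of 5 tested, with Prox1 at 2.77 ± 0.37 and Spink8 at 2.26 ± 0.31; retrosplenial-type spots lay above the arc in all but 3 and 4 cases, and the part of these lists in the result was not tested.

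Among the ranked spots, those nearer the tissue edge (50 in mouse 1, 51 in mouse 2) were compared with the deeper ones. Distance to the edge was not used by the rule, but in mouse 1 it tracks the zone. Of the nearer spots 48 lay above the arc in mouse 1 and 6 in mouse 2, and of the deeper ones 9 and 0. In mouse 2, 40 of the nearer and 47 of the deeper spots lay below it. The nearer spots reached 3 pitches from the edge in mouse 1 and 11 in mouse 2. In mouse 2 the deeper spots reached 16.4 pitches from the midline and the nearer ones 27.9. The edge and midline splits are therefore not separate contrasts in mouse 2. Of 6504 genes, 31 (0.477%) were higher nearer the edge and 41 (0.630%) lower by edgeR. Without the 9 spots with at least 1% Ttr, all of them deep, 10 of 6446 genes (0.155%) were higher and 18 (0.279%) lower. Of 14 presynaptic genes tested 2 were higher near the edge, and 1 without the 9 spots. Nr2f1, a factor of cortical area identity, had 205 and 86.5 CPM against 41.9 and 49.7, a difference of 1.42 ± 0.31 with the 9 spots and 1.42 ± 0.31 without. Fxyd7, a sodium pump regulator, differed by 1.32 ± 0.27 and 1.27 ± 0.27, and Stx1a, a syntaxin of the presynaptic membrane, by 1.29 ± 0.35 and 1.48 ± 0.37.

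Mef2c and Cacng3, an AMPA receptor auxiliary subunit, also passed near the edge with and without those spots, at 0.91 ± 0.22 and 1.44 ± 0.39 without them. Snap25 (0.51 ± 0.14, edgeR adjusted p = 0.055), Cck (0.46 ± 0.15, 0.17) and Pvalb (0.81 ± 0.22, 0.053) passed only with them. C1ql2 had 0 and 28 UMIs near the edge against 21 and 77 in the deeper spots. Pcp4 differed by -0.97 ± 0.16 and Igkc by -2.46 ± 0.44, and both stayed lower without the 9 spots, at -1.10 ± 0.17 and -2.65 ± 0.44. Ttr, which chose the spots left out, moved from -6.15 ± 0.13 to -2.52 ± 0.18, and Hba-a1 from -1.20 ± 0.17, which passed, to 0.52 ± 0.21, which did not. Myelin genes were lower in 4 of 8 cases, but their summed level went opposite ways, 2595 CPM near the edge against 10666 in mouse 1 and 8207 against 6673 in mouse 2.

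Spots nearer the midline held more myelin RNA than those farther from it. Of 6488 genes, 116 (1.79%) were higher medially and 47 (0.724%) lower by edgeR, and without the 9 Ttr-rich spots, which were all medial, 74 of 6230 (1.19%) and 38 (0.610%). All 8 myelin genes were higher with and without those spots, Mal by 1.41 ± 0.17 and 1.53 ± 0.17 and Mog by 1.41 ± 0.25 and 1.52 ± 0.25. Their summed level was 10081 CPM medially against 4319 laterally in mouse 1 and 9647 against 4741 in mouse 2. Of the medial spots 6 and 6 lay on the arc, against 3 and 1 of the lateral ones. Above the arc lay 23 and 1 of the medial spots against 34 and 5 of the lateral ones. Below it lay 21 and 43 against 13 and 44. The part of the zone in the midline differences was not tested.

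Of 14 presynaptic genes tested 6 were lower medially, and 4 without the 9 spots. Of 17 glutamate receptor and postsynaptic genes 1 was lower, as was 1 of 10 inhibitory neuron genes. Nptxr, a receptor of neuronal pentraxins, had 59.6 and 103 CPM against 147 and 274, a difference of -1.34 ± 0.20. Cpne6, a copine of dendritic spines, had 62.9 and 90.1 CPM against 103 and 231, and Gap43, the growth-cone protein, 126 and 76.0 against 191 and 216. Neurod6 differed by -1.03 ± 0.22, Syn2 by -0.80 ± 0.17, Gria3 by -0.93 ± 0.26, Lmo4 by -0.70 ± 0.17 and Cck by -0.54 ± 0.11, and each stayed lower at the threshold without the 9 spots.

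Igkc was higher medially, by 1.92 ± 0.37, on 18 and 57 UMIs against 1 and 17, and Vtn, of pericytes, by 1.12 ± 0.30. Any Igkc was read in only 13 ranked spots of mouse 1 and 23 of mouse 2. Without the 9 Ttr-rich spots, 1 of 5 tested genes of endothelium and pericytes was higher. Of complement genes edgeR then called 0 of 3 and of microglial genes 0 of 5, each list with 1 at an unadjusted p under 0.05. C1qb, another C1q chain, passed at 0.85 ± 0.25 (edgeR adjusted p = 0.0491) and missed the threshold without the 9 spots (0.051). Enpp2 moved from 3.83 ± 0.16 to 1.10 ± 0.18 without them, Ttr, which chose those spots, from 6.31 ± 0.16 to 2.67 ± 0.15, and Hbb-bt, a haemoglobin chain, turned from 1.13 ± 0.17 to -1.13 ± 0.21. The summed choroid plexus list stood at 11223 CPM medially against 405 laterally in mouse 1 and 25272 against 343 in mouse 2.

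**Figure D5:**
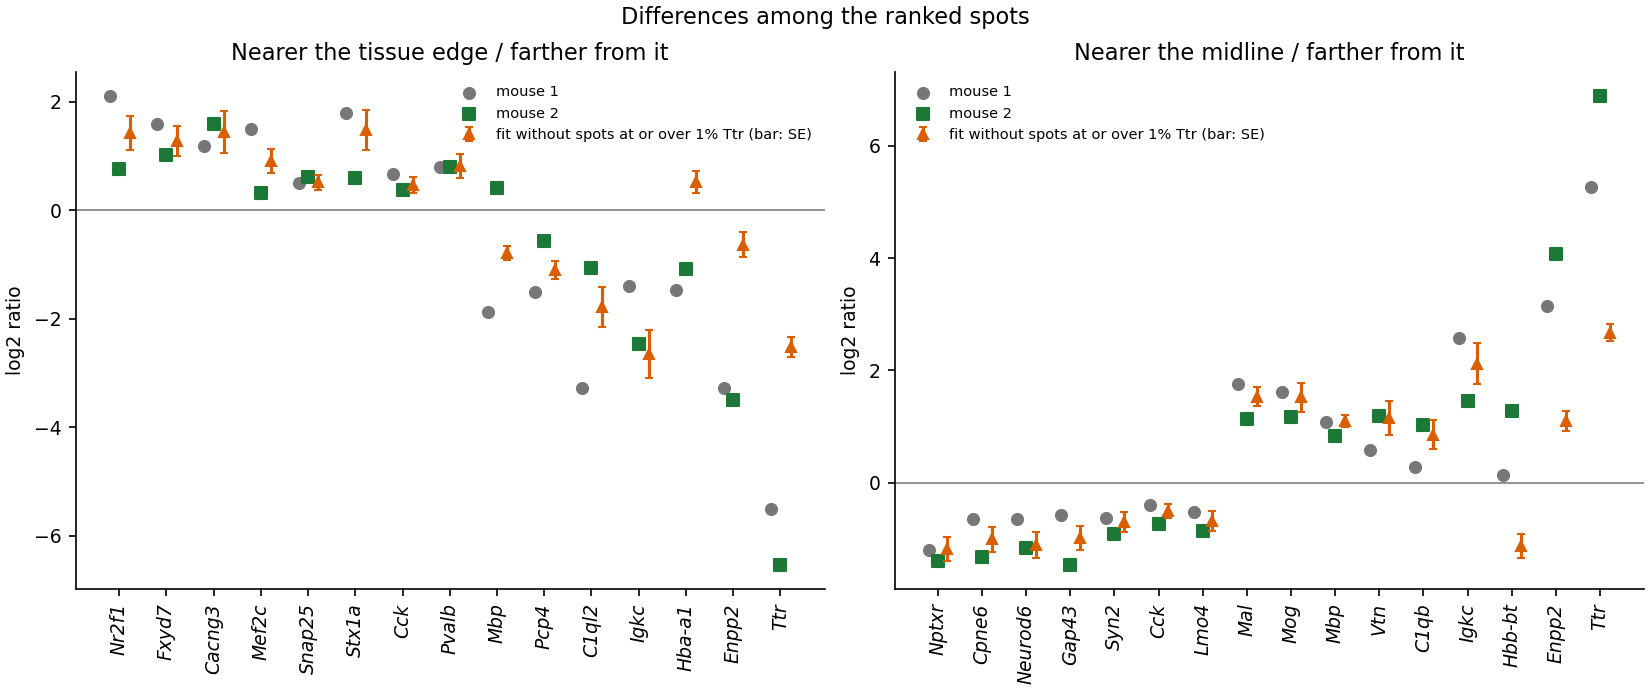
Log2 ratio (vertical) of single genes between ranked spots nearer and farther from the tissue edge (left) and nearer and farther from the midline (right), for mouse 1 (circles) and mouse 2 (squares), with the fit without spots at or over 1% Ttr (triangles, bars SE). Mbp near the edge is below 0 in mouse 1 and above 0 in mouse 2, while Mal, Mog and Mbp near the midline are above 0 in both mice.

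The image sides differed in few genes, and the injected side is not known. Of 6547 genes, 6 (0.0916%) were higher on the left and 5 (0.0764%) on the right by edgeR, with 272 at an unadjusted p under 0.05. Igkc, the kappa light chain of antibodies, was at 60.4 and 98.5 CPM on the left against 13.1 and 6.41 on the right, from 15 and 70 UMIs against 4 and 4, a difference of 3.33 ± 0.44 (edgeR adjusted p = 6.22e-11), and stayed at 3.52 ± 0.46 without the 9 Ttr-rich spots. DESeq2 did not call it, at 3.15. With 50 spots per section and with no condition on Tshz2 and Vxn it was not among the genes tested, and edgeR called no gene between the sides (184 and 318 at an unadjusted p under 0.05). It is carried by few spots: 13 ranked spots of mouse 1 and 23 of mouse 2 had any Igkc, and 10 spots held 16 of its 19 UMIs and 57 of its 74. The Igkc differences by edge and midline distance and against layer 6 and retrosplenial-type spots rest on these same ranked spots.

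Fewer genes were called between the sides without the 9 spots. Then 1 of 6195 genes (0.0161%) was called higher on the left, Igkc, and 1 (0.0161%) higher on the right, Ttr, which went from 2.23 ± 0.20 to -1.27 ± 0.16; since Ttr chose the spots left out, nothing is read from that value. Hbb-bs, a haemoglobin chain, went from -1.53 ± 0.16 to -0.38 ± 0.16 and Hba-a1 from -1.52 ± 0.17 to -0.00 ± 0.17, while Sst, somatostatin, kept its size at -0.59 ± 0.15 and -0.60 ± 0.16 but lost the call (0.318). Egr1 had 133 and 108 CPM on the left against 121 and 115, a difference of 0.03 ± 0.22, and C1qa had 76.5 and 81.6 CPM against 62.2 and 92.9, a difference of 0.01 ± 0.27; for both the mice went opposite ways. Fos, Arc and Npas4 were too low to test, with 7 and 7, 1 and 13, and 2 and 1 UMIs on the left in mouse 1 and mouse 2.

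How evenly a gene was spread among the ranked spots differed by gene. The 10 spots with the most UMIs of a gene held 24.8% of Lamp5 in mouse 1 and 36.9% in mouse 2, 25.4% and 31.4% of Cck, and 22.9% and 26.2% of Camk2n1. They held 96.2% and 95.7% of Ttr, 88.2% and 92.4% of Hbb-bs, 62.7% and 51.3% of Mbp, and 61.4% and 58.5% of Npy. The median ranked spot had 245 and 252 CPM of Ttr while the highest had 175030.2 and 207459, and 206 and 121 CPM of Npy while the highest had 6105 and 2236. Most of the summed Ttr and Hbb-bs therefore came from 10 spots of each section.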

How the data were processed

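The authors deposited whole UMI counts per gene and spot for 32285 genes, which per the file headers came from Space Ranger 1.3.1, with mm10 named in the submitters' processing notes; the annotation version is not given in the sources used here. Mouse 1 had 30671753 UMIs over 3712 spots with at least 500 UMIs, and mouse 2 had 55315952 over 3548. Members and gene lists were chosen with earlier results of these data known. Counts were summed per mouse and spot set and tested with edgeR 4.0.16 (quasi-likelihood, TMM factors, filterByExpr, mouse as a block, Benjamini-Hochberg at 0.05) in R 4.3.3, after a test on simulated data. The block pairs spot sets of 1 section. DESeq2 1.42.0 was an alternative. The 5 genes of the rule, and those of a comparator's rule, were given no test. The midline was the line whose reflection best matched 20 principal components of the spots.

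Named genes passed the threshold with 1 sign in both mice and at least 10 CPM in the higher set, taken from the largest changes and from each list; the text gives some of them, chosen after their values were seen, and genes of the lists that did not pass. A few genes are not reported here. Intervals cover counting error only.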

Additional observations from a re-analysis of the deposited data

How the results depend on the processing

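Counts of genes called are given against the main counts of 1554 (all other spots), 67 (layer 4), 704 (layer 6), 1220 (retrosplenial-type), 11 (image sides), 72 (distance to the edge), 163 (distance to the midline), 20 (above the arc) and 40 (below the arc), in that order unless named. DESeq2 called 503, 4, 58, 126, 3, 4, 13, 0 and 0. Without the replicate block, which pairs the spot sets of a mouse, 627, 12, 182, 438, 3, 10, 30 and, below the arc, 0 were called. With 50 spots per section 798 (all other spots), 356 (layer 6), 694 (retrosplenial-type), 0 (sides), 0 (edge), 31 (midline), 13 (above) and 11 (below) were called. With no condition on Tshz2 and Vxn 132 (layer 4), 451 (layer 6), 177 (retrosplenial-type), 0 (sides), 44 (edge), 52 (midline), 105 (above) and 9 (below) were called. With mouse 2 thinned to the depth of mouse 1, 555 (all other spots), 15 (layer 4), 466 (layer 6), 773 (retrosplenial-type), 97 (midline) and 4 (below) were called. Without a filter on low counts 178 were called against layer 4, and RLE factors gave 103 for the midline and 31 above the arc. Against the other dorsal spots alone 211 were called. Without spots within 3 pitches of the midline 2 were called between the sides, without spots at or over 1% Ttr 2 between the sides and 28 by edge distance, and the outermost and innermost of 3 equal sets gave 5 by edge distance and 101 by midline distance. Other counts stayed within 1.5 times the main one, but a like count need not hold the same genes. With no condition on Tshz2 and Vxn 2240 genes were called against all other spots, 914 of them among the 1554. In that setting 10 of the 67 calls against layer 4 spots were kept. Against layer 6 spots 177 of the 704 were kept, and against retrosplenial-type spots 119 of the 1220. With 50 spots per section 72 were called against layer 4 spots, 35 of them among the 67. At an unadjusted p under 0.05, the settings with 0 calls had 107 (DESeq2, above the arc), 72 (DESeq2, below), 485 (edgeR, no block, below), 184 (edgeR, 50 spots, sides), 238 (edgeR, 50 spots, edge) and 318 genes (edgeR, no condition, sides). The cause of these changes was not tested.

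Over the 9 comparisons, 348 values of genes taken by the naming rule were called, and 70 of them kept their call and direction under every alternative that tested them. Against the other dorsal spots 20 of 78 such values turned, with no condition on Tshz2 and Vxn 58 of 297. The values that turned among genes named in the text follow, by setting; nothing is read from Ttr, Kl and Enpp2 without the spots at or over 1% Ttr, since Ttr chose those spots. With 50 spots: Ttr -0.29 (all other spots), Hbb-bs -0.021 below the arc, Hbb-bt -1.36 medially, Hba-a1 0.68 by edge distance, and between the sides C1qa -0.025, Egr1 -0.31, Hbb-bs 1.01 and Hba-a1 1.31. With no condition on Tshz2 and Vxn, against all other spots: Ttr -3.00, Kl -1.84, Hba-a1 -0.29, Spink8 -0.15 and Jun -0.11; against layer 4 spots: Ttr -2.69, Prox1 -0.44, Mef2c 0.052, Cplx1 0.068 and Nefm 0.48; against layer 6 spots: Ttr -1.71, Gfap -0.66 and Igkc -0.050; against retrosplenial-type spots: Ttr -0.53. In the same setting, below the arc: Hbb-bs -0.0022 and Ccn3 0.053; by edge distance: Pvalb -0.46, Snap25 -0.053 and Hba-a1 0.0095; medially: Hbb-bt -0.33, Neurod6 0.25 and Lmo4 0.28; between the sides: Ttr -0.44, Egr1 -0.21, Enpp2 -0.16, C1qa -0.10, Hbb-bs 0.11 and Sst 0.29. Against the other dorsal spots: Egr3 -0.34, Egr1 -0.76, Spink8 -0.77, Tcf7l2 0.65, Pmch 0.69 and Prkcd 1.11. Without spots at or over 1% Ttr: Ttr -1.83 and Kl -0.84 (all other spots), Hba-a1 0.52 by edge distance, Hbb-bt -1.13 medially, and between the sides Ttr -1.27, Enpp2 -0.36 and C1qa -0.012. Without spots near the midline, between the sides: Ttr -1.40, Enpp2 -0.71, C1qa -0.13 and Hba-a1 0.084. With no filter C1qa was -0.022 between the sides. A ranking of 200 spots per section could not be run, since 110 spots of mouse 2 passed the rule. Counts without 1 mouse cannot be given, since no residual degree of freedom is left. Of 350 log2 values 78 moved by more than the spread without replicate 1 and 193 without replicate 2; the report gives values in each mouse for part of the genes.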
